A study of Mus musculus with 30 samples.

Results

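Cell division genes were followed across sorted myeloid cells of the mouse brain after stroke. The set was a list of 45 gene symbols, and each was read from the brightest transcript cluster that carried its symbol. Of the 45 genes, 42 were measured among 22103 transcript clusters, and Ccnb1, Foxm1 and Mcm7 were skipped because the platform annotation did not hold their symbols. The measured genes comprised 26 that act in mitosis and cytokinesis, of 28 listed, and 16 that act in S phase, of 17 listed. Each was read by 1 cluster, so no choice between clusters was needed, and no filter on low values was applied.

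Arrays were made from 6 groups, 5 of KO and 4 of WT neutrophils, 6 of KO and 3 of WT macrophages, and 6 each of KO and WT microglia, 30 in all. All mice were C57BL/6 males of 8 to 10 weeks, either TREM1-/- (KO) or TREM1+/+ (WT). TREM1 is a receptor of myeloid cells that amplifies inflammatory signalling. Every animal had its middle cerebral artery occluded for 45 min and was sampled after 48 h of reperfusion, so no group without stroke was compared and all levels are those of cells from an injured hemisphere. Neutrophils were gated as CD45Hi CD11b+ Ly6G+ cells and macrophages as CD45Hi CD11b+ Ly6G- cells. Microglia were gated as CD45Lo CD11b+ cells, and the labels also give that gate as Ly6G+. The labels call the arrays biological replicates without tying them to single animals, so p-values rest on the spread between arrays within groups. That spread was estimated over all 6 groups together, not from the groups compared alone.

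As background, a dividing cell copies its DNA in S phase and separates the copies in mitosis. The MCM helicase is loaded on origins by Cdc6 and Cdt1, opens the DNA together with the GINS complex, and is followed by polymerases held on the template by the clamp Pcna, while Rrm1, Rrm2, Tyms and Tk1 supply deoxynucleotides. Entry into mitosis is driven by Cdk1 with its cyclins, the spindle checkpoint holds chromosomes until all are attached, and the anaphase promoting complex with Cdc20 and Ube2c ends mitosis by degrading cyclins. Neutrophils are released from the bone marrow as non-dividing cells, whereas microglia of the adult brain renew themselves locally and can divide after injury.

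Transcription of S phase genes is classically tied to E2F sites, and that of mitotic genes to a cell cycle homology region (CHR) together with CCAAT boxes. Windows from 250 bases before to 50 bases after the RefSeq start site (GRCm38.p6) were available for 34 of the 42 measured genes, 22 of mitosis and 12 of S phase. A CHR element, searched as TTTGAA or TTCGAA on both strands, was present in 17 of the 22 mitosis windows, in 1 of the 12 S phase windows and in 19.4% of 27025 windows of all genes. A CCAAT box on either strand was present in 18 of the mitosis windows and 8 of the S phase windows, against 37.9% of all windows. An E2F site, searched as TTTCGCGC, TTTGGCGC, TTTCCCGC or TTTGCCGC on both strands, was present in 1 mitosis window (Cdk1), in 5 S phase windows (Cdc6, Cdt1, Mcm3, Mcm5 and Mcm6) and in 2.32% of all windows. A CHR and a CCAAT box occurred together in 17 mitosis windows, in 1 S phase window (Mcm2) and in 7.70% of all windows. These matches are letters in a window and were not tested as sites of binding.

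To show both layouts beside the values below, 150 bases before the start site are printed 5′ to 3′ for 4 mitosis genes and 4 S phase genes, with every match to one of these motifs on either strand in capitals. They lie at chr7:135716380-135716529 (minus strand) for Mki67, chr11:99024190-99024339 (minus strand) for Top2a, chr10:69352913-69353062 (minus strand) for Cdk1, chr9:70421555-70421704 (minus strand) for Ccnb2, chr8:75109359-75109508 (plus strand) for Mcm5, chr1:128359706-128359855 (minus strand) for Mcm6, chr12:24708104-24708253 (plus strand) for Rrm2 and chr2:132253181-132253330 (minus strand) for Pcna. The 2 CHR matches of Ccnb2 fall outside the printed stretch, and in Mcm6 an E2F match overlaps another on the opposite strand. The Mcm5 stretch opens inside an overlapping pair of E2F matches, the first of which begins before it. For Mki67, Top2a and Mcm5 the start site used lies inside the RefSeq span of the gene, so part of the printed stretch does too.
Mki67: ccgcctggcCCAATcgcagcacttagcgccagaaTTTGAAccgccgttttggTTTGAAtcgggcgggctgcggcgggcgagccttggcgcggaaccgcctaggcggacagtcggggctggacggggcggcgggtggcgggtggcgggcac
Top2a: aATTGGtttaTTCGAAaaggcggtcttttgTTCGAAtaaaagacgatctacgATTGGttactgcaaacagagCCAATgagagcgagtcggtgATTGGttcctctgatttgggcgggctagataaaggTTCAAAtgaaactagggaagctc
Cdk1: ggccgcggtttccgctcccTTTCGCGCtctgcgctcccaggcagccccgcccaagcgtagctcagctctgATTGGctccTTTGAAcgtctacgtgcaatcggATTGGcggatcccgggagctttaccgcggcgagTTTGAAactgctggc
Ccnb2: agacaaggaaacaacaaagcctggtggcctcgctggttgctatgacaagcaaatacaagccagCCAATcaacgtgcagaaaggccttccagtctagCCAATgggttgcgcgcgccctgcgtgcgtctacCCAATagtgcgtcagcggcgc
Mcm5: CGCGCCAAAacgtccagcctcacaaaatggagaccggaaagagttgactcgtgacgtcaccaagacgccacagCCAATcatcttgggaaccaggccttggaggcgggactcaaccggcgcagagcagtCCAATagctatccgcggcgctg
Mcm6: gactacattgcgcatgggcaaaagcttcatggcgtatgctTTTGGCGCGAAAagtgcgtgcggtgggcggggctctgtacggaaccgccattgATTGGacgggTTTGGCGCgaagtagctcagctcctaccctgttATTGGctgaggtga
Rrm2: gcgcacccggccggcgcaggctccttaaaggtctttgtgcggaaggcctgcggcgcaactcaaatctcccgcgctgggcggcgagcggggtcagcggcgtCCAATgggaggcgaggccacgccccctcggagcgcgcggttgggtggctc
Pcna: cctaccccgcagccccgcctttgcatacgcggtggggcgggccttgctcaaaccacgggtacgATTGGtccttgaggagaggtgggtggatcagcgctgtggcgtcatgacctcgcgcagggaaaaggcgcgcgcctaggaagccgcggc

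The cell types carried their defining markers. S100a8 averaged 17.57 and 18.02 in KO and WT neutrophils on the log2 intensity scale, Ccr2 averaged 15.28 and 15.32 in KO and WT macrophages, and Sall1 averaged 11.54 and 11.65 in KO and WT microglia. Markers of other types were also present in places. The microglial gene P2ry12 averaged 12.69 in KO and 13.66 in WT neutrophils, and 12.21 and 12.44 in KO and WT macrophages. Other microglial genes were lower in KO and WT neutrophils, with Tmem119 at 7.63 and 7.63 and Sall1 at 6.30 and 6.64. The mean of 14 microglia markers was 10.29 and 10.12 there, against 14.22 and 14.11 in KO and WT microglia. The mean of 17 neutrophil markers was 9.18 in KO microglia 2 and 7.37 in KO microglia 4, against 6.21 to 6.89 in the other microglia arrays. Within groups, arrays correlated at 0.970 to 0.989, except WT neutrophils (0.930 to 0.977). Among 2014 clusters that were bright in every macrophage and microglia array, 5, 7, 5, 8 and 24 lay more than 3 log2 units below their mean over those arrays in the KO neutrophil arrays. In the WT neutrophil arrays 20, 89, 109 and 204 did so. Neutrophil arrays took no part in choosing these clusters, so lower expression in neutrophils and array quality cannot be told apart. Trem1 itself averaged 15.98 ± 0.51 in KO neutrophils (SD, n = 5) and 17.20 ± 0.29 in WT neutrophils (n = 4), 13.47 ± 0.53 in KO macrophages (n = 6) and 13.96 ± 0.32 in WT macrophages (n = 3), and 8.35 ± 0.68 in KO microglia and 9.60 ± 1.02 in WT microglia (n = 6 each). The probes of a cluster may lie outside a deleted part, so these levels do not check the genotype.

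Microglia stood apart from both infiltrating cell types in both gene groups. The mean over the 26 mitosis genes was 6.62 ± 0.18 in KO neutrophils and 6.68 ± 0.14 in WT neutrophils (SD, n = 5 and 4), 6.31 ± 0.11 in KO macrophages and 6.41 ± 0.09 in WT macrophages (n = 6 and 3), and 10.14 ± 0.23 in KO microglia and 9.66 ± 0.77 in WT microglia (n = 6 each). The mean over the 16 S phase genes was 8.31 ± 0.26 in KO neutrophils and 7.89 ± 0.18 in WT neutrophils, 8.40 ± 0.16 in KO macrophages and 8.45 ± 0.34 in WT macrophages, and 10.97 ± 0.34 in KO microglia and 10.79 ± 0.38 in WT microglia. For each group of genes, every microglia array lay above every array of the other cells. The plot of both means per array shows this gap.

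**Figure D1:**
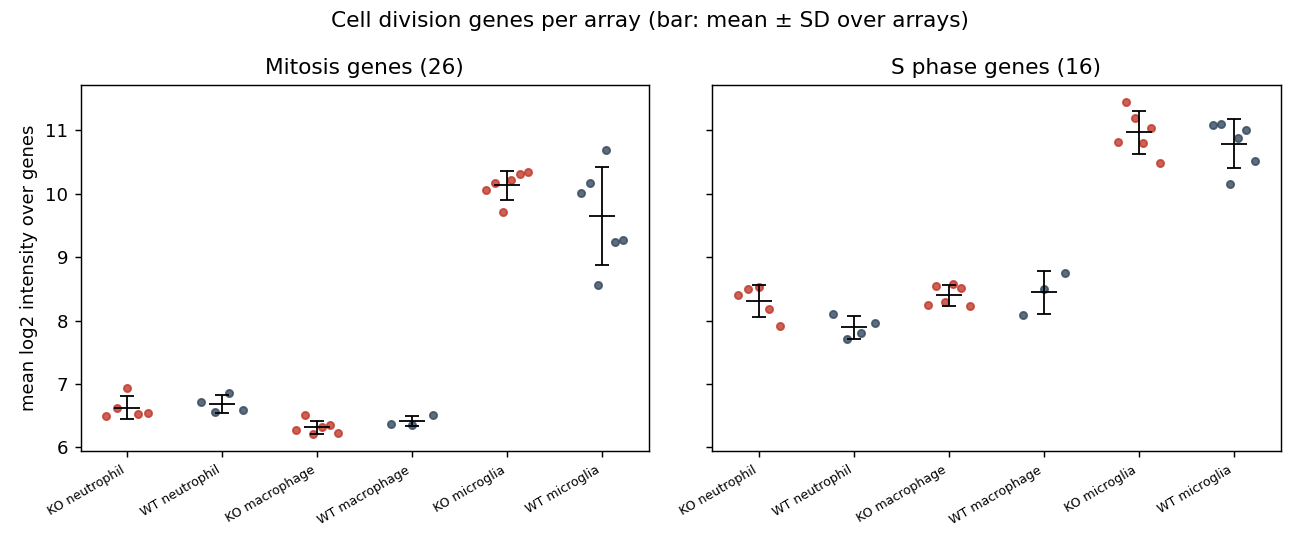
Mean log2 intensity of 26 mitosis genes (left) and 16 S phase genes (right) in each of the 30 arrays, by group on the horizontal axis, with points for arrays and bars for the group mean and SD. Microglia lie at 8.56 to 10.69 for the mitosis genes, and every other array lies at 6.93 or below.

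The dim end of the scale limits how the low values can be read. Of the 26 mitosis genes, 16 in KO neutrophils, 17 in WT neutrophils, 16 in KO macrophages and 17 in WT macrophages had a group mean below the median of all clusters, against 2 in KO microglia and 3 in WT microglia. Of the 16 S phase genes, 2, 3, 2 and 1 did so in those first 4 groups and none in microglia. The arrays give no background level, so for these genes the size of a difference from microglia is approximate. Mean S phase level minus mean mitosis level was 1.69 ± 0.22 in KO neutrophils and 1.21 ± 0.21 in WT neutrophils, 2.08 ± 0.11 in KO macrophages and 2.03 ± 0.28 in WT macrophages, and 0.83 ± 0.48 in KO microglia and 1.14 ± 0.56 in WT microglia. With only the members whose mean lay at or above the median of all clusters, it was 0.33 in KO microglia. Probes of different genes are not on a common scale, so only the change of this offset between groups can be read. Every KO microglia array, at 0.16 to 1.49, lay below every KO macrophage array, at 1.97 to 2.26, whereas WT microglia, at 0.19 to 1.78, overlapped WT macrophages, at 1.71 to 2.24.

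Macrophages were compared with microglia in each genotype, with different arrays. In KO cells 40 of the 42 genes were lower in macrophages and none was higher, with a median difference of -3.71 on the log2 scale (limma, Benjamini-Hochberg adjusted p under 0.05). Of all clusters, 31.4% were lower, 11.8% were higher and the median was -0.21. Cenpa and Cdt1, the 2 genes that did not pass, had unadjusted p-values of 0.599 and 0.411. In WT cells 40 genes were lower, with a median of -3.03, and 1 was higher, while 27.9% of all clusters were lower, 9.62% were higher and the median was -0.25. The 40 lower genes were the same in both genotypes. Mitosis genes had a median of -4.18 in KO cells and -3.55 in WT cells, with 25 of 26 lower in each, and S phase genes had -2.74 and -2.51, with 15 of 16 lower in each. Every macrophage array lay below every microglia array for 38 genes in KO cells (17.6% of all clusters) and for 37 genes in WT cells (24.9% of all clusters). In bulk RNA of sorted cells, a smaller share of dividing cells and less of the RNA per cell cannot be told apart.

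**Figure D2:**
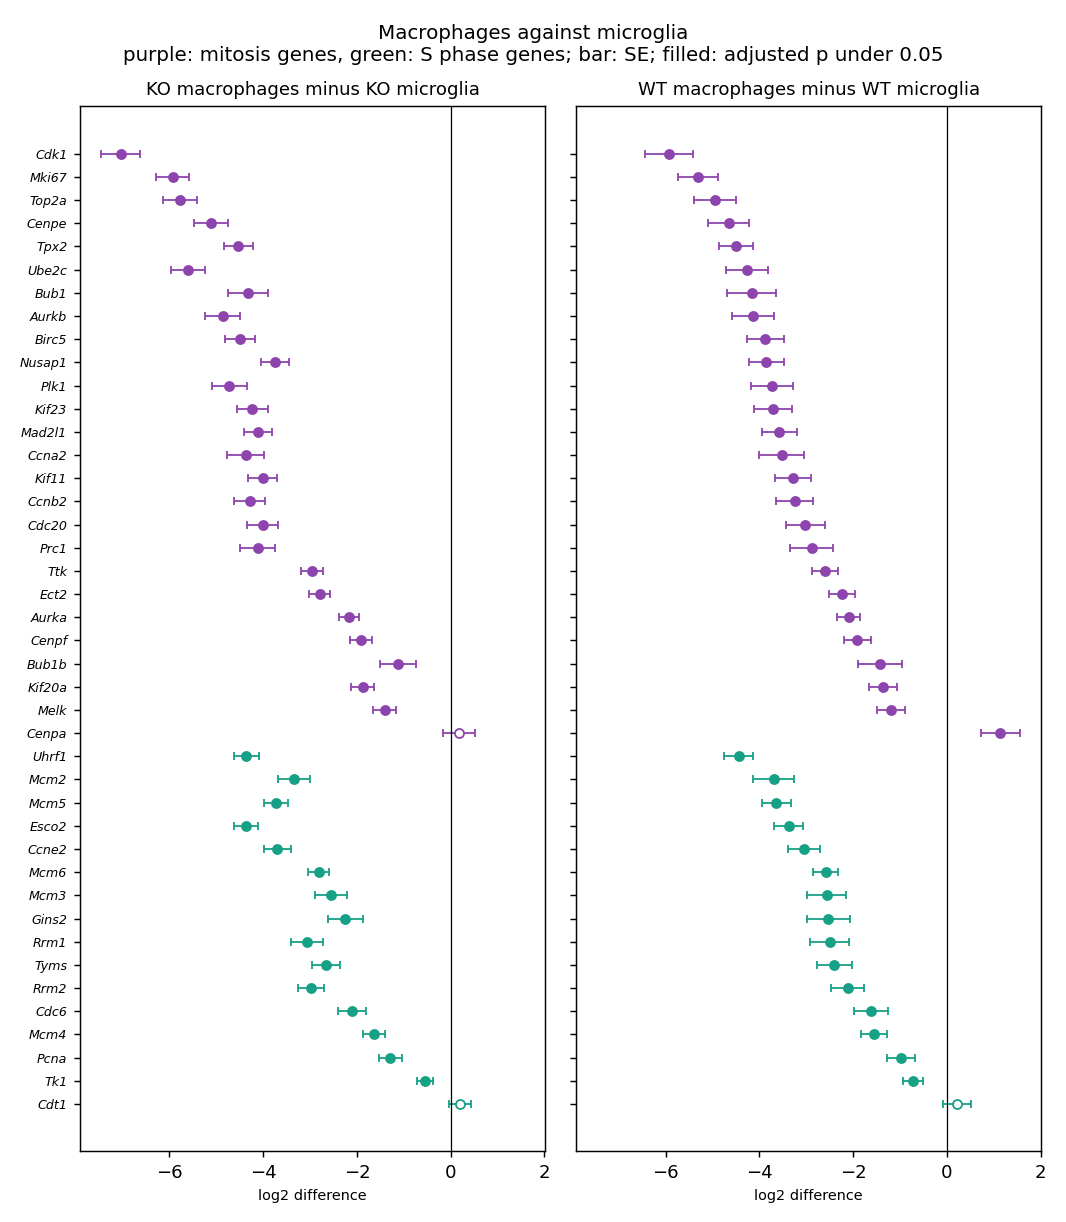
Difference in log2 intensity between macrophages and microglia for each of 42 genes, KO on the left and WT on the right, with the SE of the model as bars. Purple marks mitosis genes, green S phase genes, and filled points passed at an adjusted p under 0.05. Cenpa and Cdt1 alone lie at or right of 0.

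Cdk1, the kinase that drives entry into mitosis, had the largest difference in both genotypes. It ranged from 4.50 to 6.93 with a median of 5.42 in KO macrophages, against 12.04 to 12.88 with a median of 12.48 in KO microglia. In WT macrophages it was 4.71, 6.37 and 6.91, against 10.42 to 12.92 with a median of 11.99 in WT microglia. The groups did not overlap in either genotype. The difference was -7.04 in KO cells (SE 0.42, limma adjusted p = 2.55e-14) and -5.94 in WT cells (SE 0.51, adjusted p = 1.58e-10).

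Mki67 encodes the nuclear protein Ki-67, which coats mitotic chromosomes and is widely used as a label of cycling cells. Its level ran from 7.94 to 9.36 with a median of 8.87 in KO macrophages, against 13.52 to 15.28 with a median of 14.87 in KO microglia. In WT macrophages Mki67 was 8.87, 9.58 and 8.73, against 13.48 to 15.75 with a median of 14.28 in WT microglia. Again no macrophage array reached the lowest microglia array. The Mki67 difference was -5.93 in KO cells (SE 0.35, limma adjusted p = 2.74e-14) and -5.31 in WT cells (SE 0.43, adjusted p = 4.77e-11).

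Top2a, the topoisomerase that untangles sister chromatids, ranged from 5.09 to 6.21 with a median of 5.68 in KO macrophages, against 11.07 to 11.75 with a median of 11.56 in KO microglia. In WT macrophages Top2a was 5.34, 6.87 and 5.82, against 9.59 to 12.25 with a median of 10.97 in WT microglia. It was low in each macrophage array, below the median of all clusters in all but WT macrophage 2. The difference was -5.77 in KO cells (SE 0.37, limma adjusted p = 1.02e-13) and -4.95 in WT cells (SE 0.45, adjusted p = 4.22e-10).

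Ccnb2, the B type cyclin measured here, was 6.85 to 7.68 with a median of 7.34 in KO macrophages, against 10.93 to 12.38 with a median of 11.48 in KO microglia. In WT macrophages Ccnb2 was 7.38, 7.58 and 7.30, against 9.28 to 12.27 with a median of 10.78 in WT microglia. WT microglia spread over about 3 log2 units, yet the lowest of them exceeded every macrophage array. Birc5, the survivin subunit of the chromosomal passenger complex, was 6.68 to 7.61 with a median of 6.87 in KO macrophages, against 10.38 to 12.03 with a median of 11.61 in KO microglia. In WT macrophages Birc5 was 7.03, 6.45 and 7.62, against 9.52 to 12.47 with a median of 10.84 in WT microglia. The same separation held for it. The differences were -4.29 for Ccnb2 (SE 0.33, limma adjusted p = 5.94e-12) and -4.49 for Birc5 (SE 0.32, adjusted p = 1.26e-12) in KO cells, and -3.25 (SE 0.40, adjusted p = 1.57e-07) and -3.87 (SE 0.39, adjusted p = 3.57e-09) in WT cells.

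The other genes of mitosis are given by their role as differences of macrophages from microglia. Ccna2, the A type cyclin partner of Cdk1, differed by -4.37 in KO cells and by -3.53 in WT cells. Plk1 and Aurkb, kinases of mitotic entry and of chromosome attachment, differed by -4.72 and -4.86 in KO cells and -3.73 and -4.14 in WT cells. Among the genes that end mitosis, Ube2c, the ubiquitin carrier of the anaphase promoting complex, differed by -5.60 in KO cells and -4.27 in WT cells, and its activator Cdc20 by -4.01 and -3.02. All of these passed in both genotypes.

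Among genes of the kinetochore and the spindle checkpoint, Cenpe, a kinetochore motor, differed by -5.12 in KO cells and -4.66 in WT cells, and the checkpoint genes Bub1 by -4.32 and -4.17, Mad2l1 by -4.11 and -3.57, and Ttk by -2.96 and -2.59. Bub1b, which encodes the checkpoint protein BubR1, had a small difference of -1.12 in KO cells (SE 0.38, limma adjusted p = 0.0193) and -1.42 in WT cells (SE 0.47, adjusted p = 0.0178), with overlapping arrays. The Bub1b call in KO cells was lost with quantile normalisation over all arrays (-0.70, adjusted p = 0.174), with arrays centred on their median (-0.75, adjusted p = 0.129) and without KO macrophage 5 (-0.90, adjusted p = 0.0640). Spindle genes differed by -4.53 for Tpx2, -4.01 for the motor Kif11 and -3.75 for Nusap1 in KO cells, and by -4.50, -3.28 and -3.85 in WT cells. Among genes of cytokinesis, Prc1, which bundles microtubules of the central spindle, differed by -4.12 in KO cells and -2.88 in WT cells, Ect2, which activates RhoA for the contractile ring, by -2.80 and -2.24, and the motor Kif20a by -1.88 and -1.36.

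Among S phase genes, Mcm5, a helicase subunit, was 7.19 to 8.63 with a median of 8.12 in KO macrophages, against 11.18 to 12.37 with a median of 11.72 in KO microglia. In WT macrophages Mcm5 was 7.66, 7.74 and 8.61, against 11.14 to 12.09 with a median of 11.73 in WT microglia. The gap of over 2 log2 units between the nearest arrays was alike in both genotypes. Mcm6 was 9.38 to 10.01 with a median of 9.58 in KO macrophages, against 11.94 to 12.92 with a median of 12.46 in KO microglia, and 9.19, 9.90 and 10.30 in WT macrophages, against 11.70 to 12.87 with a median of 12.46 in WT microglia. Ccne2, an E type cyclin of S phase entry, was 7.72 to 8.69 with a median of 8.45 in KO macrophages, against 11.57 to 12.63 with a median of 11.96 in KO microglia, and 8.53, 8.88 and 8.74 in WT macrophages, against 10.88 to 12.45 with a median of 11.79 in WT microglia. Macrophages stood clear of the dim end for these 3 genes. Rrm2, the small subunit of ribonucleotide reductase, was 5.58 to 6.88 with a median of 6.19 in KO macrophages, against 8.66 to 9.89 with a median of 8.99 in KO microglia, and 5.85, 7.36 and 6.29 in WT macrophages, against 8.22 to 9.08 with a median of 8.63 in WT microglia. No macrophage array reached the microglia of its genotype for any of the 4.

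As differences, the helicase subunits Mcm5, Mcm2, Mcm6, Mcm3 and Mcm4 differed by -3.73, -3.34, -2.81, -2.56 and -1.63 in KO cells and by -3.64, -3.70, -2.58, -2.56 and -1.55 in WT cells. Uhrf1, which brings maintenance DNA methylation to replicated DNA, had -4.36 in KO cells and -4.45 in WT cells, and Ccne2 had -3.70 and -3.05. Of the nucleotide enzymes, Rrm1 and Rrm2 differed by -3.06 and -2.98 in KO cells and -2.50 and -2.12 in WT cells, and Tyms by -2.66 and -2.40. The difference of Tk1, a thymidine kinase of the salvage route, was only -0.54 in KO cells (SE 0.17, limma adjusted p = 0.00944) and -0.72 in WT cells (SE 0.20, adjusted p = 0.00615). The Tk1 call was lost in both genotypes with quantile normalisation over all arrays (-0.12 in KO cells, adjusted p = 0.616, and -0.29 in WT cells, adjusted p = 0.304) and with arrays centred on their median (-0.18, adjusted p = 0.399, and -0.32, adjusted p = 0.234). Pcna was bright everywhere, at 13.43 to 14.15 with a median of 13.64 in KO macrophages and 14.77 to 15.29 with a median of 15.01 in KO microglia, and at 13.94, 13.81 and 14.31 in WT macrophages and 14.66 to 15.18 with a median of 15.10 in WT microglia. Its difference was -1.28 in KO cells and -0.98 in WT cells, the second -0.57 (adjusted p = 0.155) with arrays centred on their median, and no macrophage array of either genotype reached the microglia of that genotype.

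Cdt1 and Cenpa alone were not called lower in macrophages. Cdt1, the licensing factor that loads the MCM helicase, was 8.98 to 10.68 with a median of 10.00 in KO macrophages and 9.06 to 10.25 with a median of 9.79 in KO microglia. In WT macrophages Cdt1 was 9.77, 10.19 and 10.13, against 9.31 to 10.22 with a median of 9.82 in WT microglia. The groups overlapped, and the difference was 0.20 in KO cells (SE 0.24, limma adjusted p = 0.532) and 0.21 in WT cells (SE 0.29, adjusted p = 0.598). Cenpa, the histone H3 variant of centromeres, had a median of 12.58 and a highest value of 13.21 in KO macrophages and ran from 11.24 to 12.79 with a median of 12.67 in KO microglia, a difference of 0.18 (SE 0.35, adjusted p = 0.704). In WT macrophages Cenpa was 13.25, 12.23 and 13.03, against 10.06 to 13.10 with a median of 11.59 in WT microglia. This difference passed, at 1.14 (SE 0.42, adjusted p = 0.0339), although the arrays overlapped. It was lost with quantile normalisation over all arrays (adjusted p = 0.0608), with only the arrays compared (adjusted p = 0.118) and in 5 of 9 fits that left out 1 array, those without WT macrophage 1 or 3 or WT microglia 3, 5 or 6, with adjusted p up to 0.154. Without KO microglia 3 the KO difference of Cenpa was -0.050 (adjusted p = 0.922).

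**Figure D3:**
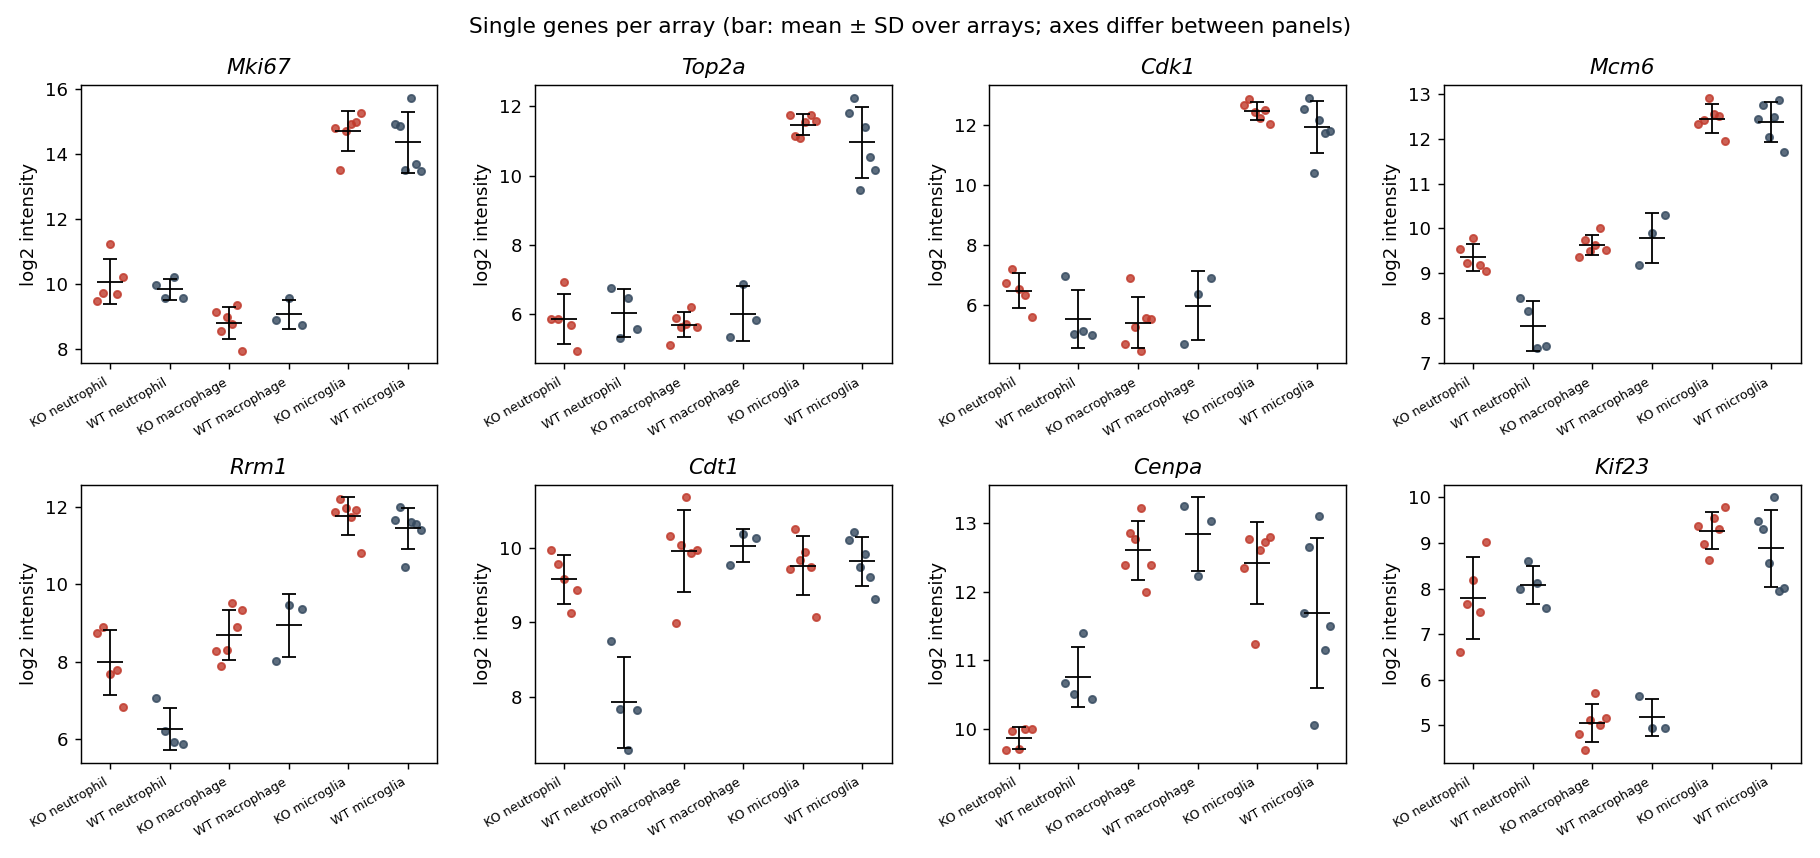
Log2 intensity of 8 genes in each of the 30 arrays, by group on the horizontal axis, with points for arrays and bars for the group mean and SD; the vertical axes differ between panels. Mki67, Top2a and Cdk1 are high in all 12 microglia arrays, Cdt1 is low in WT neutrophils, Cenpa is low in neutrophils, and Kif23 is low in macrophages.

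Neutrophils were also low in most of these genes against microglia. In KO cells 41 of 42 genes were lower and none higher, with a median of -3.49, against 32% of all clusters lower, 13% higher and a median of -0.20. In WT cells 40 genes were lower, with a median of -3.06, against 32.3% of all clusters lower, 22% higher and a median of -0.06, and 39 genes passed in both genotypes. Arrays did not overlap for 39 genes in KO cells (21% of all clusters) and for 34 in WT cells (23.1% of all clusters). The differences of Cdk1 were -5.98 in KO cells (SE 0.44, limma adjusted p = 3.76e-12) and -6.38 in WT cells (SE 0.47, adjusted p = 2.58e-12), and those of Top2a and Aurkb were -5.61 and -4.95 in KO cells and -4.93 and -4.89 in WT cells. Ube2c differed by -5.14 in KO cells. At the other end, Aurka, Bub1b and Tk1 differed by -1.27, -0.98 and -0.60 in KO cells, and Cenpa and Melk by -0.93 and -0.83 in WT cells. Of these, Bub1b, Tk1 and Cenpa did not pass with quantile normalisation over all arrays (-0.63, adjusted p = 0.232, -0.24, adjusted p = 0.289, and -0.38, adjusted p = 0.435) or with arrays centred on their median (-0.71, adjusted p = 0.173, -0.33, adjusted p = 0.128, and -0.79, adjusted p = 0.0862), and the Cenpa call was also lost with array weights and with only the arrays compared. Cdt1 did not pass in KO cells (-0.19, SE 0.25, adjusted p = 0.584), and Kif23 (-0.82, SE 0.38, adjusted p = 0.0689) and Tk1 (-0.23, SE 0.19, adjusted p = 0.298) did not pass in WT cells. Among S phase genes in WT cells, Rrm1 had the largest difference, -5.19 (SE 0.39, adjusted p = 3.41e-12), followed by Uhrf1 at -4.57 and Mcm6 at -4.55. These comparisons use the same microglia arrays as those of macrophages above.

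Neutrophils and macrophages were close to each other in most mitosis genes, and 2 genes set them apart in both genotypes by more than 2 log2 units. In each of these 4 groups, 16 or 17 of the 26 mitosis genes had a mean below the median of all clusters. At such dim levels a difference between the cell types may not show. Kif23, a kinesin of the central spindle that is needed for cytokinesis, was 6.60, 7.67, 8.18, 7.49 and 9.03 in KO neutrophils, against 4.45 to 5.70 with a median of 5.06 in KO macrophages. In WT neutrophils Kif23 was 7.99, 8.60, 8.11 and 7.58, against 5.65, 4.93 and 4.93 in WT macrophages. All neutrophil arrays lay above all macrophage arrays, with a difference of 2.75 in KO cells (SE 0.35, limma adjusted p = 7.31e-07) and 2.90 in WT cells (SE 0.45, adjusted p = 6.18e-06). Cenpa was 9.69, 9.97, 9.71, 10.00 and 10.00 in KO neutrophils and 10.68, 10.51, 11.40 and 10.44 in WT neutrophils, below every macrophage array of its genotype. Its difference from macrophages was -2.73 in KO cells (SE 0.36, adjusted p = 1.30e-06) and -2.08 in WT cells (SE 0.46, adjusted p = 0.000481).

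In KO cells 3 genes were higher in neutrophils than in macrophages (Kif23, Mki67 and Aurka; 15.9% of all clusters were higher) and 2 were lower (Cenpa and Kif20a; 15.8% were lower). In WT cells 4 were higher (Kif23, Nusap1, Esco2 and Aurka; 29.6% were higher) and 7 were lower (22% were lower). Of the 7, Cenpa and Kif20a belong to mitosis, and the other 5 to S phase. These were Rrm1 at -2.69, Cdt1 at -2.11, Mcm6 at -1.96, Mcm3 at -1.33 and Pcna at -1.18. In both genotypes and both directions these were smaller shares than among all clusters. Aurka, Kif23, Cenpa and Kif20a passed in both genotypes. In WT cells the calls of Nusap1 and Esco2 were lost with quantile normalisation over all arrays (adjusted p = 0.0532 and 0.0750) and with arrays centred on their median (adjusted p = 0.0806 and 0.0509), and that of Aurka with only the arrays compared (adjusted p = 0.0519). Mki67 differed by 1.29 in KO cells (SE 0.37, limma adjusted p = 0.00884), while Cdk1 (1.06, adjusted p = 0.0645), Plk1 (0.94, adjusted p = 0.0615), Rrm1 (-0.71, adjusted p = 0.138) and Gins2, a subunit of the GINS complex (-0.65, adjusted p = 0.208), did not pass. The count in KO cells, 5, became 14 with weights per array, 12 with only the arrays compared and 8 with quantile normalisation within cell types.

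In neutrophils 5 of the 42 genes were higher in KO than in WT, a share close to the 10.7% of all clusters, and none was lower, against 9.14%. The WT arrays here are those that also stand against WT macrophages above. All 5 act in S phase, and none of the 26 mitosis genes passed, with 13 differences above 0 and 13 below. Of the mitosis genes, 16 in KO and 17 in WT neutrophils had a mean below the median of all clusters. Of the 16 S phase genes, 2 and 3 did so. A difference may not show at dim levels, and whether the change differs between the gene groups was not tested. The median difference was -0.02 over the mitosis genes, 0.18 over the S phase genes and -0.13 over all clusters. For 2 genes every KO array lay above every WT array (5.52% of all clusters), and for Cenpa every KO array lay below every WT array (5.86% of all clusters), though its difference of -0.88 had an adjusted p of 0.117 with limma.

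Mcm6, a subunit of the replicative helicase, was 9.55, 9.23, 9.79, 9.19 and 9.04 in KO neutrophils, against 8.44, 8.15, 7.34 and 7.39 in WT neutrophils. The groups did not overlap, and the difference was 1.53 (SE 0.25, limma adjusted p = 0.000117). Cdt1 was 9.97, 9.78, 9.58, 9.12 and 9.43 in KO neutrophils, against 8.74, 7.84, 7.28 and 7.83 in WT neutrophils. Again all KO arrays were the higher, with a difference of 1.65 (SE 0.28, adjusted p = 0.000136). Rrm1, the large subunit of ribonucleotide reductase, was 8.75, 8.89, 7.69, 7.79 and 6.83 in KO neutrophils, against 7.06, 6.21, 5.92 and 5.86 in WT neutrophils. Only KO neutrophil 5 fell within the range of the WT arrays, and the difference was 1.73 (SE 0.40, adjusted p = 0.00319).

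Mcm3, another helicase subunit, was 10.02, 9.98, 9.99, 9.07 and 7.63 in KO neutrophils, against 8.77, 7.93, 7.37 and 8.23 in WT neutrophils. The groups overlapped through KO neutrophil 5, and the difference was 1.27 (SE 0.39, limma adjusted p = 0.0233). Pcna was 14.06, 13.51, 14.05, 13.59 and 12.85 in KO neutrophils, against 13.66, 13.24, 12.82 and 11.64 in WT neutrophils, with a difference of 0.77 (SE 0.27, adjusted p = 0.0453). WT neutrophil 4 was the lowest array for Pcna. Without it the difference was 0.37 (adjusted p = 0.316). The calls of Mcm3 and Pcna were also lost with quantile normalisation over all arrays (adjusted p = 0.0507 and 0.0650), with it within cell types (adjusted p = 0.0532 and 0.0627) and with only the arrays compared (adjusted p = 0.148 and 0.241), and that of Pcna with array weights (adjusted p = 0.0675). The count of 5 fell to 3 without WT neutrophil 3 or without KO neutrophil 1, 2 or 3.

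Group means of other measures also differed between KO and WT neutrophils. The mean of 15 monocyte and macrophage markers was 13.07 ± 0.20 in KO neutrophils (range 12.78 to 13.34) and 12.39 ± 0.33 in WT neutrophils (12.10 to 12.71), and 8 of the 15 were higher and 1 lower in KO, against 10.7% and 9.14% of all clusters. The mean of 17 neutrophil markers was 12.95 ± 0.43 in KO neutrophils (12.29 to 13.34) and 14.10 ± 1.07 in WT neutrophils (13.26 to 15.56), and 5 of the 17 were lower and none higher in KO. The mean of 12 markers of immature neutrophils and their precursors was 6.91 ± 0.31 in KO neutrophils (6.71 to 7.47) and 7.50 ± 1.03 in WT neutrophils, where array 2 stood at 9.03 and the others at 6.79 to 7.19, and 3 of the 12 were lower and none higher in KO. The clusters chosen above as bright in macrophages and microglia are called broadly bright here. Fewer of them were low in KO neutrophils, at 5 to 24 per array, against 20 to 204 in WT neutrophils. The median of these bright clusters in each array then entered the fit as a covariate, which was added after the values were known. That median was 12.85 to 13.21 in KO neutrophils and 12.42 to 12.91 in WT neutrophils. The covariate is thus largely confounded with genotype here, and a fit with it cannot tell the 2 apart. None of the 5 genes passed in that fit. Calls fell over all 22103 clusters too, from 2370 higher and 2020 lower to 250 higher and 222 lower. The differences were then 0.91 for Mcm6 (limma adjusted p = 0.157), 1.26 for Cdt1 (0.0846), 0.65 for Rrm1 (0.650), 0.37 for Mcm3 (0.852) and -0.33 for Pcna (0.655). The part of the markers in these differences was not tested.

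**Figure D4:**
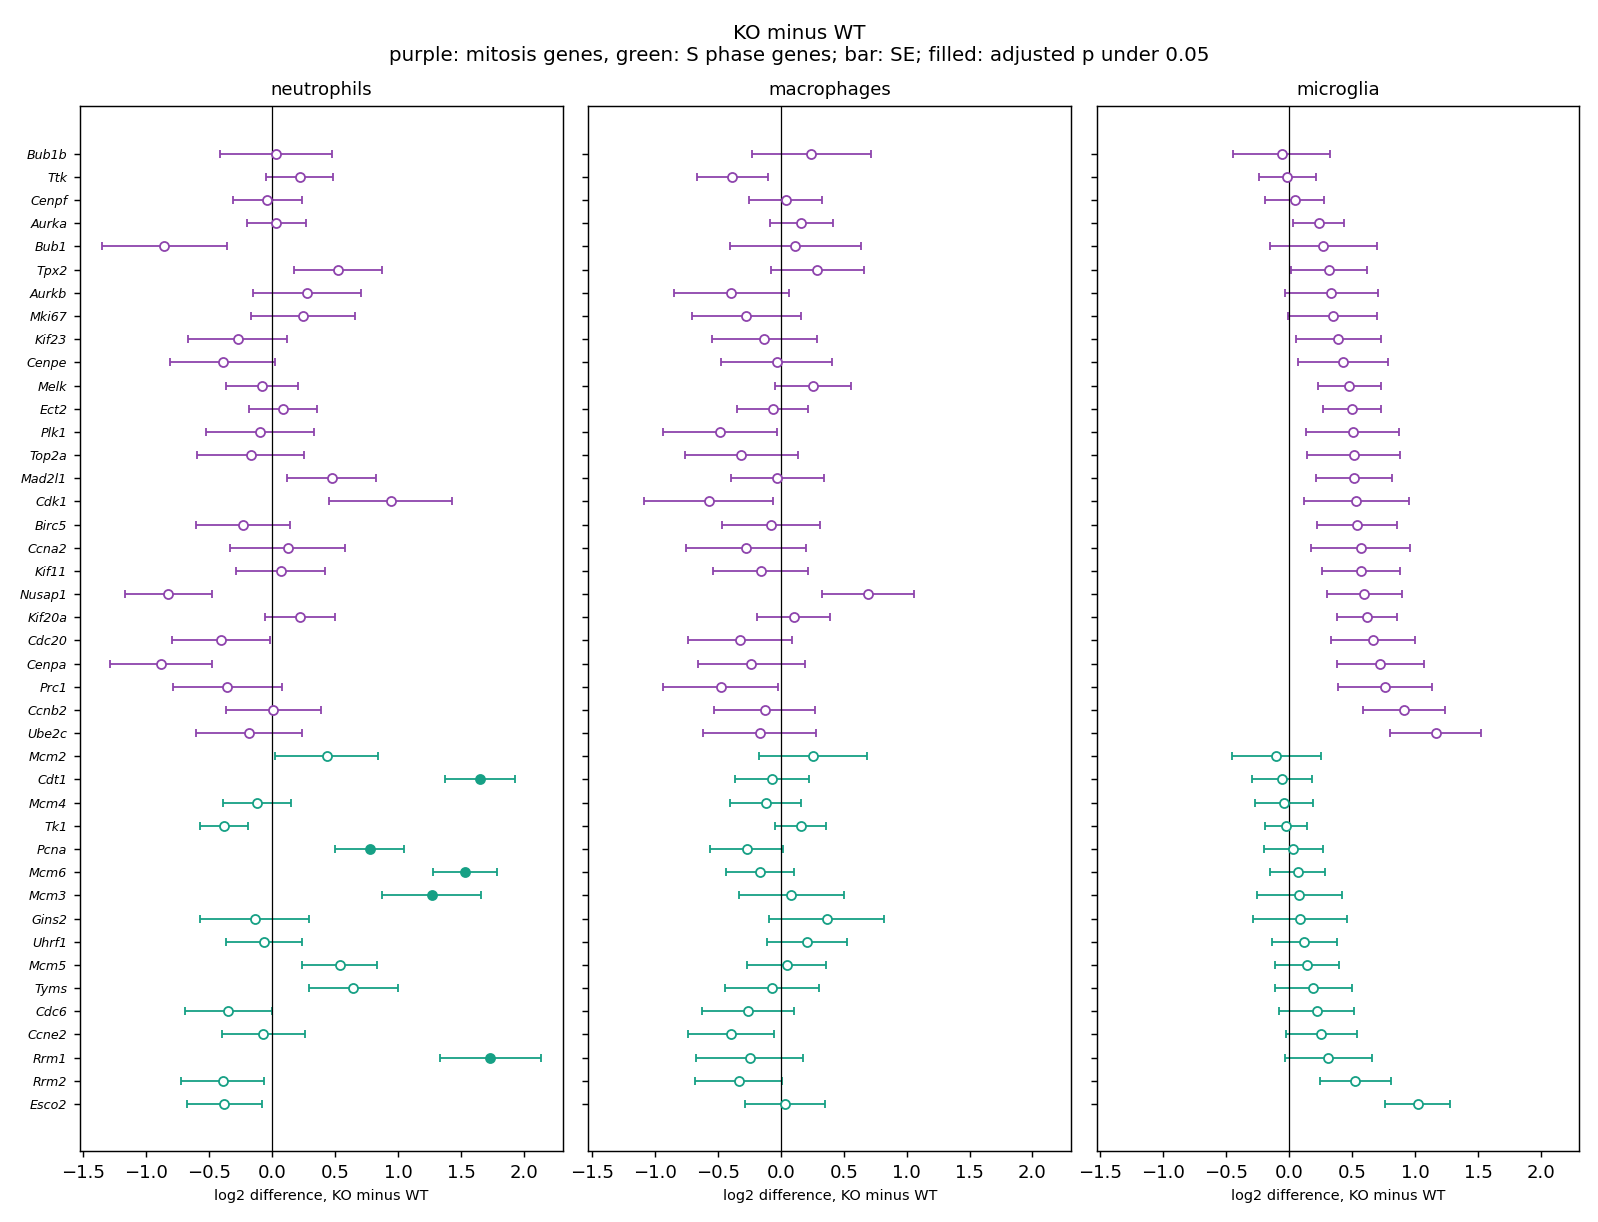
Difference in log2 intensity between KO and WT for each of 42 genes in neutrophils, macrophages and microglia, with the SE of the model as bars. Purple marks mitosis genes, green S phase genes, and the 5 filled points, all in neutrophils and all S phase genes, passed at an adjusted p under 0.05.

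In microglia none of the 42 genes passed between KO and WT, as none of all clusters did (0%), and 7 genes had an unadjusted p under 0.05 in limma, against 646 of all 22103 clusters. All 7 were higher in KO, 6 of them mitosis genes. Differences were above 0 for 24 of 26 mitosis genes, with a median of 0.51, and for 12 of 16 S phase genes, with a median of 0.10, while the median of all clusters was 0.00. The arrays of KO and WT microglia overlapped for each of the 42 genes, and among all clusters 0.0679% lay wholly above and 0.0407% wholly below. Esco2, which acetylates cohesin during S phase, ran from 8.73 to 9.56 with a median of 9.05 in KO microglia, against 7.02 to 8.82 with a median of 8.17 in WT microglia (difference 1.02, SE 0.26, unadjusted p = 0.000479, adjusted p = 1.00). Ube2c ran from 9.99 to 12.04 with a median of 11.27 in KO microglia, against 8.26 to 11.65 with a median of 10.37 in WT microglia (difference 1.16, SE 0.36, unadjusted p = 0.00345, adjusted p = 1.00). Ccnb2 differed by 0.91 (SE 0.33, unadjusted p = 0.00917, adjusted p = 1.00).

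In macrophages none of the 42 genes passed between KO and WT, against 0.00452% of all clusters, and none had an unadjusted p under 0.05 in limma, against 1029 clusters. Their differences ran from -0.57 for Cdk1 to 0.70 for Nusap1, with a median of -0.10. With 6 KO and 3 WT arrays, standard errors of these differences ran from 0.20 for Tk1 to 0.52 for Bub1.

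The mitosis genes varied more between WT microglia arrays than between KO microglia arrays. The SD over arrays was wider in WT for 26 of 26 mitosis genes, for 9 of 16 S phase genes and for 49.6% of all clusters. Its median was 0.42 in KO and 0.91 in WT microglia for mitosis genes, 0.43 and 0.46 for S phase genes, and 0.30 and 0.30 for all clusters. The mitosis mean was 10.06, 10.17, 9.71, 10.21, 10.32 and 10.34 in KO microglia 1 to 6, against 10.02, 10.17, 8.56, 10.69, 9.23 and 9.27 in WT microglia 1 to 6. In WT, array 3 was the lowest for 17 of the 26 genes and array 4 the highest for 20, so the genes were high or low in the same arrays. The genes share their arrays and were not treated as replicates, and no test of the spread was made. The monocyte and macrophage markers averaged 10.03 in WT microglia 3, against 9.29 to 9.67 in the other WT microglia. They averaged more in KO microglia 5 and 6, at 10.41 and 10.10, the arrays with the highest mitosis means in KO. The microglia markers averaged 13.73 in both WT microglia 3 and WT microglia 6. No link between these markers and the mitosis genes was tested.

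**Figure D5:**
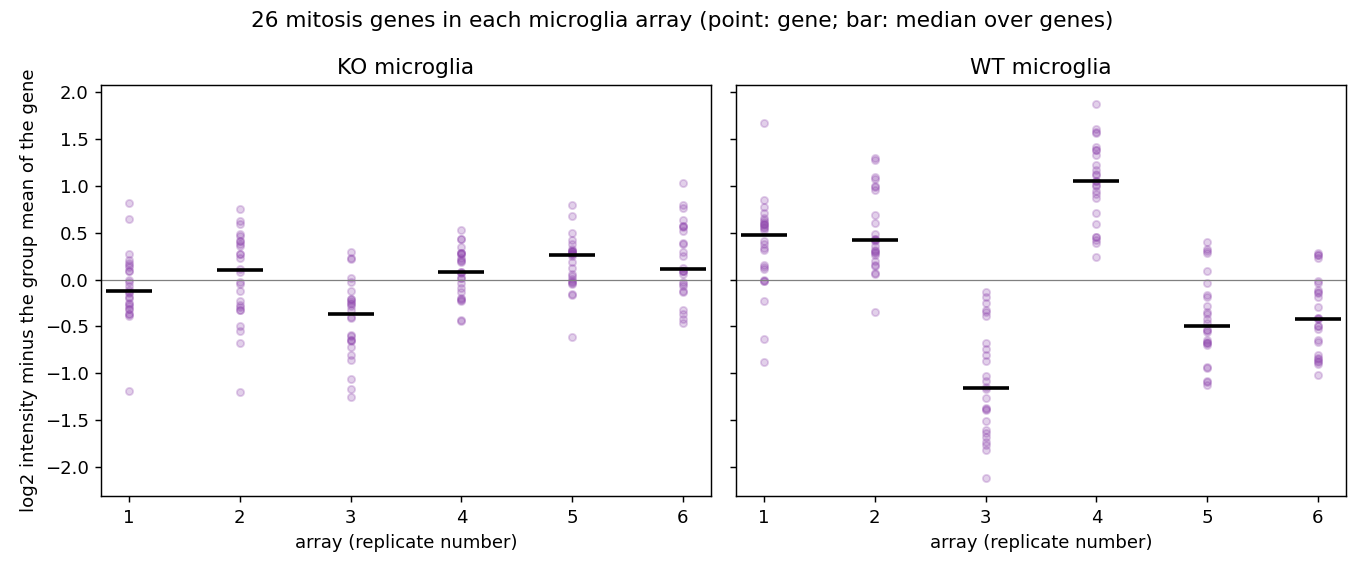
Log2 intensity of each of 26 mitosis genes minus the mean of that gene in its group, for the 6 KO (left) and 6 WT (right) microglia arrays, with points for genes and bars for the median over genes. In WT microglia, array 3 lies low and array 4 high for nearly all genes.

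S phase genes did not follow the same order of arrays. The S phase mean was 10.82, 11.46, 11.20, 10.80, 11.05 and 10.49 in KO microglia 1 to 6, and 11.09, 11.10, 10.15, 10.88, 11.01 and 10.53 in WT microglia 1 to 6. KO microglia 6 was the lowest array for 10 of 16 S phase genes and the highest for 11 of 26 mitosis genes. KO microglia 2 and 3 were the highest for 9 and 5 S phase genes, and KO microglia 3 was the lowest for 13 mitosis genes. In WT, array 3 was the lowest for both groups of genes, for 11 of 16 in S phase. The S phase mean minus the mitosis mean therefore ran from 0.16 in array 6 to 1.49 in array 3 of KO microglia, and from 0.19 in array 4 to 1.78 in array 5 of WT microglia.

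Whether the change with genotype differed between cell types was tested by interaction. Between neutrophils and microglia, the change of Cdt1 (difference of changes 1.71, SE 0.37, limma adjusted p = 0.00563) and of Mcm6 (1.46, SE 0.34, adjusted p = 0.00884) was higher in neutrophils, against 4.06% of all clusters, and that of Esco2 (-1.40, SE 0.40, adjusted p = 0.0331) was lower, against 1.73%. Between neutrophils and macrophages, 3 genes passed, all higher in neutrophils, against 4.36% of all clusters higher and 2.51% lower. They were Mcm6 (1.69, SE 0.37, adjusted p = 0.0077), Cdt1 (1.72, SE 0.40, adjusted p = 0.0118) and Rrm1 (1.98, SE 0.58, adjusted p = 0.0385). For Mcm3 and Pcna the change in neutrophils was not shown to differ from that in microglia (adjusted p = 0.164 and 0.217) or in macrophages (0.194 and 0.101). No gene passed between macrophages and microglia, as for all clusters (0%), and 3 had an unadjusted p under 0.05, against 761 clusters. The Esco2 call was lost under each of the 3 other normalisations (-1.20, -1.20 and -1.27, adjusted p = 0.0703, 0.0731 and 0.0551) and in 7 of 21 fits that left out 1 array, those without KO neutrophil 1 or 4, WT neutrophil 2 or 4, KO microglia 1 or WT microglia 3 or 6. The Rrm1 call was lost with only the arrays compared (adjusted p = 0.0874) and in 10 of 18 such fits, those without KO neutrophil 1, 2 or 4, WT neutrophil 3 or 4, KO macrophage 1, 2 or 3 or WT macrophage 2 or 3. With the covariate of broadly bright clusters, which itself differed between KO and WT neutrophils, no gene passed in either test that involves neutrophils. Between neutrophils and microglia the values were then 1.34 for Cdt1, 0.88 for Mcm6 and -1.41 for Esco2 (adjusted p = 0.168, 0.326 and 0.201). Between neutrophils and macrophages they were 1.32 for Cdt1, 1.04 for Mcm6 and 0.86 for Rrm1 (adjusted p = 0.281, 0.313 and 0.697).

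Further genes of the pathway, outside the 45, were read from lists of other mitosis genes, other replication genes, G1 regulators and inhibitors. Over all clusters, 31.4% were lower and 11.8% higher in KO macrophages than in KO microglia, and 27.9% and 9.62% in WT macrophages than in WT microglia. In macrophages against microglia, 44 of 46 other mitosis genes were lower in KO cells, with a median of -3.19, and 42 in WT cells, with a median of -2.88. Ndc80 and Spc24, subunits of the outer kinetochore, differed by -4.73 and -3.84 in KO cells and -4.64 and -3.32 in WT cells. Other replication genes were lower for 37 of 43 in KO cells and 36 in WT cells, among them Exo1, a DNA exonuclease, at -3.94 and -3.49. Of 19 G1 cyclins, kinases and E2F factors, 12 were lower and 4 higher in KO cells, and 12 lower and 3 higher in WT cells, with Ccne1, an E type cyclin, at -4.12 and -4.20. Of 17 inhibitors and pocket proteins, 8 were lower and 4 higher in each genotype. The inhibitor Cdkn2c was lower in macrophages, at -2.72 in KO cells and -2.27 in WT cells, and Wee1, the kinase that holds Cdk1 inactive, at -3.61 and -2.97.

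Between KO and WT neutrophils, 7 of the 19 G1 genes were higher and 1 was lower, against 10.7% and 9.14% of all clusters. Myc, a transcription factor of cell growth, averaged 9.86 ± 0.51 in KO neutrophils and 7.11 ± 1.59 in WT neutrophils (SD, n = 5 and 4), a difference of 2.75 (SE 0.56, limma adjusted p = 0.000944). The G1 kinase Cdk4 differed by 1.56 (SE 0.32, adjusted p = 0.00105). Of 43 other replication genes 5 were higher and 1 was lower, with Pola1 and Pola2, subunits of DNA polymerase alpha, at 1.46 and 1.53. Of 46 other mitosis genes none was higher and 1 was lower, the condensin gene Smc4 at -1.03 (SE 0.25, adjusted p = 0.00426). Of 17 inhibitors and pocket proteins 3 were higher and 4 lower, with Wee1 at 1.41, Rb1, the retinoblastoma protein, at 0.89 and the inhibitor Cdkn2d at -1.74. The monocyte and macrophage markers and the broadly bright clusters given above differ between these same arrays. With the covariate of those clusters, 0 of the 19 G1 genes passed in limma (6 at an unadjusted p under 0.05), with Myc at 2.01 (adjusted p = 0.198) and Cdk4 at 0.46 (adjusted p = 0.648). Of the other replication genes 2 then passed, both higher, and of the inhibitors 1, Cdkn2d at -3.38 (adjusted p = 0.00107). None of the other mitosis genes did (4 at an unadjusted p under 0.05). Of all 22103 clusters, 250 were higher and 222 lower in that fit.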

How the data were processed

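RNA of sorted cells was hybridised to Clariom HT mouse arrays, 1 array per sample. The deposited table holds linear intensities normalised by the authors with RMA, per the submitters' processing notes. The RMA version and the arrays normalised together are not given in the sources used here. Intensities ran from 5.62 to 438297 and were turned into log2 values with no pseudocount. Array number and signal over background limit the precision.

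Symbols came from the platform annotation, where 19508 of 22103 clusters carry 1 symbol, 2595 carry none and none carries several. Fits used limma 3.58.1 in R 4.3.3 with 1 mean per group over all 30 arrays, and Benjamini-Hochberg adjustment over all clusters, with a threshold of 0.05. The fit was tested on simulated data. Means and motif searches used Python 3.11.15 with pandas 2.3.3. The members, gene lists, markers and tests were chosen with earlier results of these data known. Values per array are given for a fixed list of 10 members and for members past the threshold between genotypes. In each comparison of cell types, the 4 highest and 4 lowest differences are named, and in each other list up to 4 genes of smallest p. Others were named by role after their values were seen. Alternatives changed the normalisation, the filter, the prior, array weights, the arrays fitted and single arrays left out. Cell types of 1 genotype may come from the same animals. Same-numbered arrays of 2 cell types of a genotype had correlations of their deviations between -0.16 and 0.16 (26 pairs). Same-numbered arrays of both genotypes, which are different mice, had -0.20 to 0.26. The numbers were not taken to pair samples, so animals shared between cell types are not modelled in the main fit.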

Additional observations from a re-analysis of the deposited data

Results flagged for a closer look

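For the genes shown by array and the module means, the values of each group of 4 to 6 arrays were examined, which gave 80 sets of values from the same arrays. In 5 of the 80, 1 array stood far from the others by Dixon's criterion, and chance alone marks about 1 in 20 groups. Mki67 was low in KO microglia 2, at 13.52. In that array the neutrophil markers averaged 9.18 and the microglia markers 14.67. It was also the highest KO microglia array for 9 of 16 S phase genes. Cdk1 was high in WT neutrophil 1, at 6.99, the WT neutrophil array with the fewest low broad clusters (20 of 2014). Birc5 was high in KO macrophage 4, at 7.61, and Rrm1 was low in KO microglia 6, at 10.81. The mitosis mean was high in KO neutrophil 3, at 6.93, where Mki67 was 11.24 and Top2a 6.93. No link between a flagged value and the other values of its array was tested.

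The change with genotype differed between cell types for 4 genes by limma's interaction test. It was higher in neutrophils than in microglia for Mcm6 (1.46) and Cdt1 (1.71) and lower for Esco2 (-1.40). It was higher in neutrophils than in macrophages for Mcm6 (1.69), Rrm1 (1.98) and Cdt1 (1.72). Of all clusters, 4.06% were higher and 1.73% lower in the first test, and 4.36% and 2.51% in the second. The Esco2 call was lost under each of the other normalisations, and the Rrm1 call with only the arrays compared. No gene passed with the covariate of broadly bright clusters, which itself differed between KO and WT neutrophils. No cause of these differences was tested.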

How the results depend on the processing

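Of the alternatives for single genes, 1748 kept direction and side of the threshold, 103 lost the call, 11 gained it and 5 turned direction. Cdt1 turned to 0.28 (quantile normalisation over all arrays) and 0.084 (arrays centred on their median) in KO neutrophils against KO microglia, Tk1 to 0.20 (quantile normalisation over all arrays) in WT neutrophils against WT microglia, and Pcna to -0.33 (covariate of broadly bright clusters) in KO against WT neutrophils. Cenpa in KO macrophages against KO microglia ran from -0.050 to 0.30 with single arrays left out. Between KO and WT neutrophils, 3 genes passed with quantile normalisation over all arrays, 0 with the covariate and 3 to 6 with single arrays left out. With the covariate, which itself differed between KO and WT neutrophils, 250 of all 22103 clusters were higher and 222 lower. In KO neutrophils against KO macrophages, 8 passed with quantile normalisation within cell types, 14 with array weights and 12 with only the arrays compared, against 5. Of the interactions, neutrophils against microglia gave 0 with the covariate and 2 to 6 with single arrays left out (2 without WT neutrophil 4, 6 without WT microglia 4). Neutrophils against macrophages gave 0 with the covariate, 5 with array weights and 2 to 5 with single arrays left out (2 without WT neutrophil 3, 5 without KO neutrophil 5). S phase minus mitosis means moved to 2.25 in KO macrophages without Esco2 and Melk, to 1.90 in KO neutrophils and 2.36 in KO macrophages with medians, and to 0.33 in KO microglia and 0.98 in WT neutrophils with members at or above the median of all clusters. The causes were not tested. Over all clusters, the median of macrophages minus microglia was -0.21 in KO cells and -0.25 in WT cells, against 0.16 and 0.15 with arrays centred on their median and 0.021 and 0.0027 with quantile normalisation over all arrays, and 38 genes passed in each genotype under both. With the replicate block, 5 genes passed between KO and WT neutrophils, 40 in KO macrophages against KO microglia and 39 in WT macrophages against WT microglia. Only some genes of each comparison were followed singly under the block. Among those, the block ended the calls of Rrm1 between neutrophils and macrophages in the change with genotype (1.96, limma adjusted p = 0.0686), of Bub1b in KO neutrophils against KO microglia (-1.005, 0.0787), and of Cenpa in WT macrophages (1.11, 0.116) and WT neutrophils (-1.12, 0.0534) against WT microglia, and Kif23 passed in WT neutrophils against WT microglia (-1.27, 0.00774). Calls of other genes changed too, as the counts show. The count was 41 in the main fit and 39 with the block in WT macrophages against WT microglia. In WT neutrophils it was 40 and 39 against WT microglia, and 11 and 12 against WT macrophages. In KO neutrophils against KO macrophages it was 5 and 6. Of 26 arrays, 7 correlated best with their own number in the other genotype.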
